A study of Mus musculus with 2 samples.

Results

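The genes described here are the keratins, the claudins and the genes of the desmosome, together with Perp and Epcam, in RNA from the lower molar of mouse embryos. Members were taken by symbol: Krt or Cldn followed by digits only, Dsc1 to Dsc3, the Dsg genes, Dsp, Jup, Perp, Epcam and Pkp1 to Pkp4. Of 22054 gene symbols, 89 met the rule, comprising 47 keratins, 25 claudins and 17 genes of the desmosome group including Perp and Epcam. Keratins whose number carries a letter, such as Krt6a, fall outside it. The rule used names only, and no measured value.

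The study compared Osr2-/- mutants with Osr2+/- controls at embryonic day 14.5, on a mixed strain background. Its product is a transcription factor with zinc fingers that acts in tooth mesenchyme. Frozen heads were sectioned, and molar tissue was cut out by laser capture, which the sample labels call mesenchyme and the series' design text calls tooth germs. Tissue from 3 control and mutant pairs was pooled for RNA extraction, and 1 amplified library per genotype was sequenced, on separate lanes according to the file names. There was no replicate, so every difference below is between these 2 libraries and has no replicate check, and lane, pool and genotype cannot be told apart. Which part of Osr2 the allele lacks was not stated in the labels.

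Keratins are the intermediate filament proteins of epithelial cells. A type I and a type II keratin join to make a filament, and the combination changes from simple to stratified epithelium and from basal to upper layers. Filaments are anchored at desmosomes, in which the cadherins of the Dsc and Dsg families span the membrane and the plaque proteins plakoglobin (Jup), the plakophilins (Pkp) and desmoplakin (Dsp) connect them to keratin. Claudins form the strands of tight junctions, which seal the space between cells. At this stage the molar is an epithelial cap that encloses mesenchyme, and mesenchymal cells use vimentin in place of keratin. These genes are therefore commonly read as a sign of epithelial content.

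Values are RPKM, reads scaled to transcript length and to mapped reads, with rows of one gene summed. Estimated from coverage at an uncertain 44.3 bases per read, the control library held about 5.38 M mapped reads and the mutant library 34.3 M. The depth ratio of 6.38 does not depend on that value. Intervals in parentheses are 95% counting intervals from these approximate reads. They cover counting error only. Osr2 itself was at 38.7 RPKM in control RNA and 9.16 RPKM in mutant RNA, 4.23-fold lower (3.69 to 4.84). The mesenchymal genes Prrx1 (151 and 122 RPKM) and Col1a1 (83.2 and 86.7 RPKM) and the vimentin gene Vim (111 and 99.3 RPKM) were abundant in both libraries. The highest member, Krt5, was at 16.3 RPKM.

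Epithelial filament and junction genes were present at low levels in both libraries and were higher in the mutant library when summed. The 89 members summed to 60.0 RPKM in control RNA and 80.3 RPKM in mutant RNA, a ratio of 1.34 (1.24 to 1.44), while the ratio for all 22054 genes was 0.97. Set against Vim, the sum came to 54.2% of the Vim level in control RNA and 80.8% in mutant RNA. In bulk tissue, more cells of a type and more RNA per cell cannot be told apart. Keratins had a summed ratio of 1.41 (1.26 to 1.59), desmosome genes with Perp and Epcam 1.25 (1.13 to 1.39), and claudins 1.26 (1.02 to 1.56). When each claudin was taken by its highest transcript row alone, the ratio was 1.14 (0.92 to 1.41), an interval that includes 1. The intervals of the 3 families overlap, and a difference between them was not tested.

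**Figure D1:**
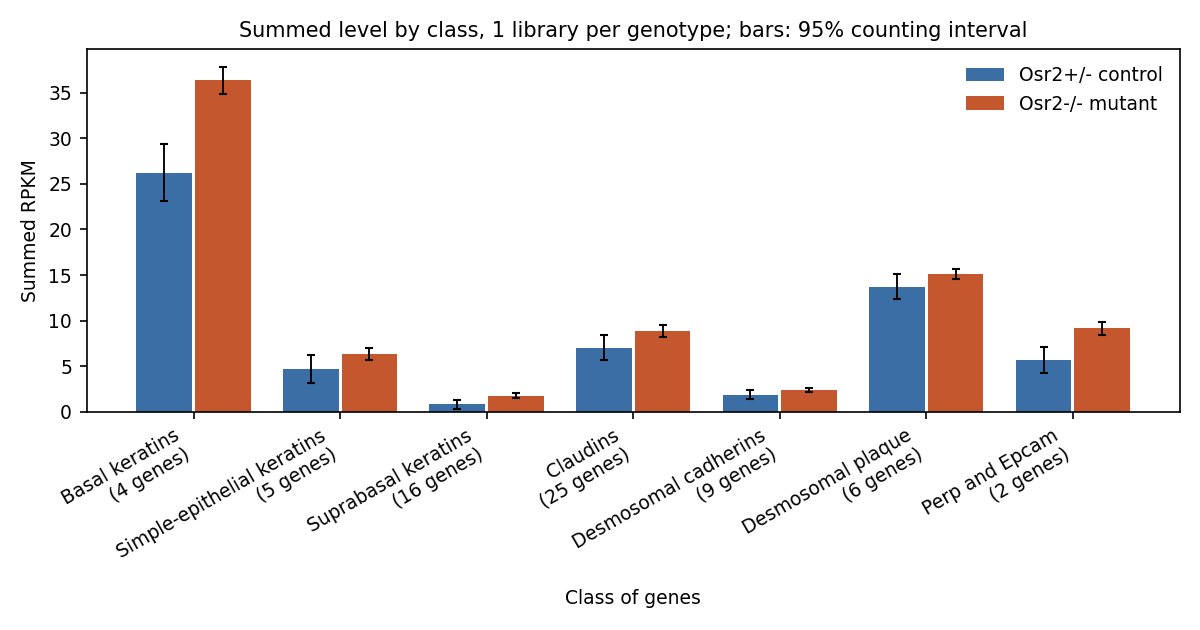
Summed RPKM (vertical axis, from 0) of 7 classes of members in the control library (blue) and the mutant library (orange), with 95% counting intervals and 1 library per genotype. Basal keratins hold the largest sum in both libraries, 26.3 RPKM in control RNA and 36.4 RPKM in mutant RNA.

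Only 13 of the 89 members reached 1 RPKM in at least 1 library, the level used here for comparing single genes. They were 6 keratins, 2 claudins, 3 plaque genes, Perp and Epcam. Krt18 was the member that reached this level in the mutant library only, which favours a higher fold, and it is included in the counts below. All 13 also reached the level by the mean of both libraries. The measure of difference was log2 of mutant RPKM + 1 over control RPKM + 1, a scale that shrinks differences between low values. The median over the 13 was 0.21, against -0.05 over all 9779 genes at that level. Of the 13, 11 lay above 0, against 42.5% of all genes. On this scale 1 member, Krt17, was at least 2-fold higher and none was 2-fold lower, against 0.89% and 0.798% of all genes. A counting interval of the plain RPKM ratio lay above 1 for 6 members (Krt14, Krt15, Krt17, Krt18, Perp and Dsp), against 7.87% of all genes. It lay below 1 for none, against 15.9% of all genes.

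These counts depend on how many reads stand behind each value. With 100 bases taken as 1 read in place of 44.3, which gives fewer reads per gene, 3 of the 6 intervals still lay above 1, those of Krt17, Perp and Dsp, against 2.50% of all genes. Krt14, Krt15 and Krt18 then had intervals of 0.93 to 2.30, 0.91 to 2.38 and 0.82 to 13.7. Intervals of sums, and of members under 1 RPKM such as Dsg2, would also widen and were not recomputed at 100 bases.

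**Figure D2:**
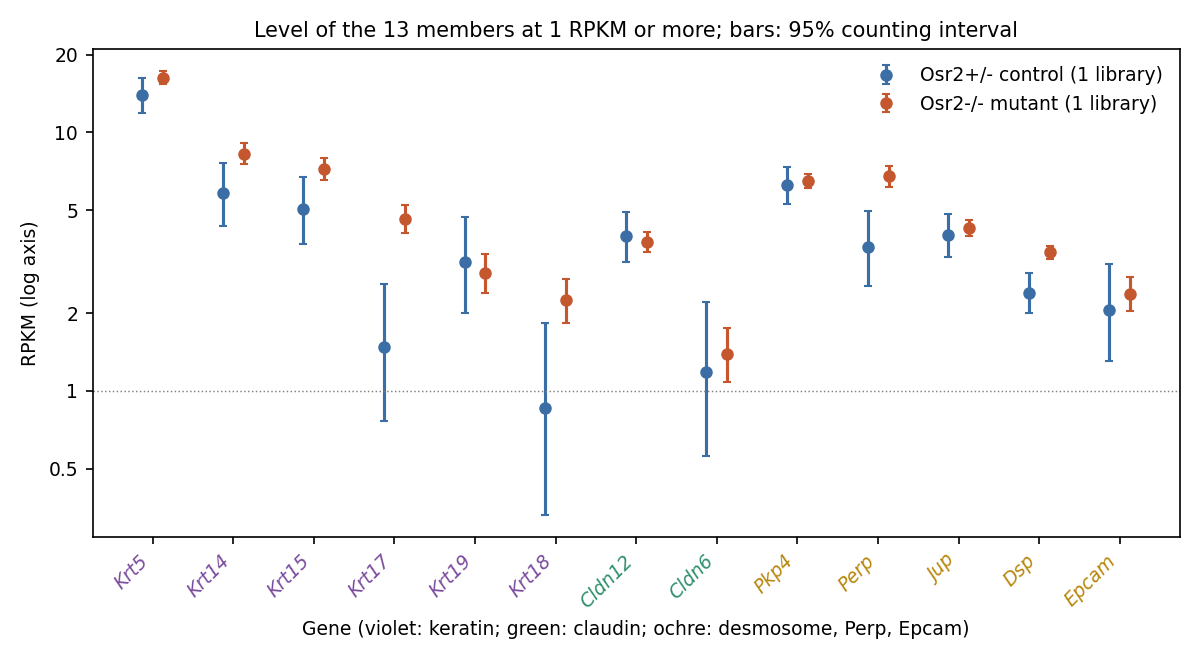
RPKM on a log axis of the 13 members at 1 RPKM or more, in the control library (blue) and the mutant library (orange), with 95% counting intervals. Krt5 is the highest member in both libraries, and the intervals of Krt17, Krt18, Perp and Dsp do not overlap between the libraries.

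Basal keratins made up most of the keratin RNA. Krt5, Krt14, Krt15 and Krt17 together gave 82.7% of the summed keratin level in the control and 81.3% in the mutant. Krt5, the type II keratin of basal cells, was the most abundant member, at 13.9 RPKM in control RNA (11.9 to 16.2) and 16.3 RPKM in mutant RNA (15.4 to 17.2). Its ratio of 1.17 (0.99 to 1.38) had an interval that included 1, whereas the interval ran from 1.02 to 1.43 on the TPM scale and from 1.02 to 1.42 with upper quartile scaling. Krt5 ranked 1193 of 22054 genes by level in control RNA and 950 in mutant RNA, so even the leading keratin lay below many genes of the tissue.

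Krt14, the type I partner of Krt5, was at 5.80 RPKM in control RNA (4.33 to 7.62) and 8.28 RPKM in mutant RNA (7.55 to 9.07), 1.43-fold higher (1.07 to 1.94). The level of Krt5 was 2.40 times that of Krt14 in the control (1.75 to 3.35) and 1.96 times in the mutant (1.76 to 2.19). The intervals of these 2 ratios overlap. Krt15, another type I keratin of basal cells, was at 5.05 RPKM (3.70 to 6.72) and 7.24 RPKM (6.57 to 7.96), 1.43-fold higher (1.06 to 1.99). Krt14 and Krt15 thus had nearly the same fold.

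Krt17, a type I keratin of developing skin appendages and of epithelium under stress, had the largest fold of the 13. It was at 1.48 RPKM in control RNA (0.77 to 2.59, about 12.1 reads) and 4.63 RPKM in mutant RNA (4.06 to 5.26, about 240 reads), 3.12-fold higher (1.76 to 6.12). Relative to Krt14, its neighbour in the same gene cluster, it was at 0.26 in the control (0.12 to 0.48) and 0.56 in the mutant (0.48 to 0.65). Krt17 made up 4.67% of the summed keratin level in control RNA and 10.3% in mutant RNA, while that of Krt5 was 43.9% and 36.3%.

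Among keratins of simple epithelium, Krt18 had a fold interval above 1, and those of Krt8 and Krt19 included 1. Krt18, a type I keratin, was at 0.86 RPKM in control RNA (0.33 to 1.82) and 2.24 RPKM in mutant RNA (1.84 to 2.70), 2.60-fold (1.19 to 6.90), with about 6.49 control reads behind it. Its type II partner Krt8, named here for that role and below 1 RPKM in both, was at 0.53 RPKM (0.18 to 1.22) and 0.88 RPKM (0.66 to 1.14), a ratio of 1.66 (0.68 to 5.23). Krt19, a type I keratin with a very short tail, was at 3.14 RPKM (2.0 to 4.71) and 2.85 RPKM (2.38 to 3.37), a ratio of 0.91 (0.58 to 1.47). Krt7, on about 1.21 control reads, was at 0.14 and 0.36 RPKM, and Krt20 was listed at 0 in both libraries. The sum of these 5 genes was 4.67 and 6.33 RPKM, with a mutant to control ratio of 1.35 (0.96 to 1.91).

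The promoters below show the upstream DNA of the leading basal keratin, of the Krt8 and Krt18 partners and of Epcam, an adhesion protein of epithelial cell surfaces. They are RefSeq windows on GRCm38.p6, a later build than the mm9 of the expression values, and hold the 250 bases before the annotated start, written 5′ to 3′ on the gene's strand. Krt5 lies at chr15:101712906-101713155 on the minus strand, Krt8 at chr15:102004343-102004592 on the minus strand, Krt18 at chr15:102027966-102028215 on the plus strand and Epcam at chr17:87635729-87635978 on the plus strand. Capitals mark every match, on either strand, to the motifs searched: TATAAA of the TATA box, GGGCGG of the GC box, CAGGTG of the Snail and Zeb E-box, TGANTCA of AP-1 sites and AACCNGTT of grainyhead-like sites.
Krt5: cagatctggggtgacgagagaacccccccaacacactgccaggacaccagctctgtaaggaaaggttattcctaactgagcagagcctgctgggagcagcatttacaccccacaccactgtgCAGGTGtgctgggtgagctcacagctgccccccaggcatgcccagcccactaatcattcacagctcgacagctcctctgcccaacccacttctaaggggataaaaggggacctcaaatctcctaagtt
Krt8: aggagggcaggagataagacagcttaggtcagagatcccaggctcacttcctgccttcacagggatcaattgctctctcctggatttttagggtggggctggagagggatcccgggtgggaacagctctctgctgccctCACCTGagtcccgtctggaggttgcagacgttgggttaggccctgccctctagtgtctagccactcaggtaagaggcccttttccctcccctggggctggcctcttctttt
Krt18: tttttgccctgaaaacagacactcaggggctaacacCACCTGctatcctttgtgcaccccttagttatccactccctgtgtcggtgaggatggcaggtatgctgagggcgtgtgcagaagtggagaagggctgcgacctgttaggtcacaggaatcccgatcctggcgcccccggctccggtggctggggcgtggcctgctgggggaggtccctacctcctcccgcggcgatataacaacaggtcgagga
Epcam: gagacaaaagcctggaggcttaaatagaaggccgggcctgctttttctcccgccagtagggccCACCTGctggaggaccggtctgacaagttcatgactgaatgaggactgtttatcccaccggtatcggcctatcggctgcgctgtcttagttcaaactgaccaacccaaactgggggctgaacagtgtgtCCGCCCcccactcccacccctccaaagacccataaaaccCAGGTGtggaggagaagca
Each of the 4 holds CAGGTG or its reverse complement, the E-box letters that Snail and Zeb repressors are known to read. It begins 128 bases before the start in Krt5, 111 in Krt8, 214 in Krt18, and 187 and 19 in Epcam, which also holds the reverse of GGGCGG. The Krt8 and Krt18 windows face away from each other and lie 23.4 kb apart, so these partners are neighbours on chromosome 15. Among full windows of 300 bases, which add 50 bases after the start, CAGGTG was in 21 of 66 windows of 56 matched members (31.8%) and in 20.2% of all 32851 windows. TATAAA was in 27.3% of member windows and 13.6% of all, GGGCGG in 28.8% and 35.7%, TGANTCA in 6.06% and 7.81%, and AACCNGTT in 1.52% and 2.09%. These are matches of letters and describe the windows only. Of the 13 members compared singly, 9 had a window and 6 of these held CAGGTG in at least 1 window (Krt5, Krt18, Epcam, Dsp, Pkp4 and Cldn6). Krt14, Jup and Cldn12 had a window without it. This count is per gene, and the 20.2% is per window, so the 2 are not like shares. The 4 printed promoters all hold CAGGTG and do not stand for the members as a set. Krt15, Krt17, Krt19 and Perp were not matched.

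The keratin genes sit in clusters, and their sequences overlap in part. In mm9, 25 keratins lay on chromosome 11 from 99094412 to 100131185 and 22 on chromosome 15 from 101180002 to 101862457, the latter including Krt18, the type I keratin outside its own cluster. Osr2 is on chromosome 15 as well. By type, the 26 type I keratins summed to 16.5 RPKM in control RNA and 26.1 RPKM in mutant RNA, a ratio of 1.59 (1.33 to 1.88). The 21 type II keratins summed to 15.2 and 18.7 RPKM, with a mutant to control ratio of 1.23 (1.05 to 1.43). Type II RNA was nearly all Krt5. Without Krt5, the summed keratin ratio was 1.603 (1.36 to 1.89).

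Similar copies limit how surely reads can be given to one keratin. In GENCODE M21 transcripts, 18.1% of the 44-base windows of Krt14 were also found in another gene, mostly Krt16, and 13.05% of those of Krt5, mostly Krt6a. The share was 6.43% for Krt17, 1.39% for Krt15, 2.37% for Krt18 and 0 for Krt19, Perp, Epcam, Jup and Pkp4. For Krt8 it was 31.2%, mostly in the pseudogene Krt8-ps. How such reads were assigned was not stated in the labels. Krt16 itself was listed at 0.0041 RPKM in control RNA and 0.027 RPKM in mutant RNA.

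Keratins of upper epithelial layers were low, and those of hair were at or near 0. The 16 suprabasal keratins summed to 0.81 and 1.74 RPKM, a ratio of 2.16 (1.13 to 4.14), and 10 of them had under 1 read in both libraries. In the control 12 of them were at 0, and genes at 0 add no error to this interval. It may be too narrow, so its exclusion of 1 is uncertain. Krt1 was at 0.54 RPKM in control RNA and 0.57 RPKM in mutant RNA, a ratio of 1.05 (0.47 to 2.73). Its partner Krt10, on about 1.66 control reads, was at 0.15 and 0.54 RPKM, with a mutant to control ratio of 3.70 (0.86 to 43.5). Krt4, a keratin of wet stratified epithelium such as the oral lining, was listed at 0 in the control and at 0.23 RPKM in mutant RNA, and Krt13, its partner, at 0 in both. Of 21 hair keratins, 20 had under 1 read in both libraries, and the other, Krt27, had about 1.07 reads in the mutant. Krt222 was at nearly 0 in the control and 0.31 RPKM in mutant RNA, where a count of 3 control reads would have been 0.20 RPKM.

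Among desmosome genes, Dsp, Perp and Dsg2 had a fold interval above 1, and the ratios of the others lay on both sides of 1. Pkp4, a plakophilin relative found at junctions of many cell types, was at 6.24 RPKM in control RNA (5.29 to 7.32) and 6.46 RPKM in mutant RNA (6.07 to 6.88), a ratio of 1.04 (0.87 to 1.24). Jup, which is shared by desmosomes and adherens junctions, was at 4.01 RPKM (3.29 to 4.84) and 4.28 RPKM (3.97 to 4.60), a ratio of 1.07 (0.87 to 1.32). Dsp, the plaque protein that binds keratin, was at 2.40 RPKM (1.99 to 2.86) and 3.43 RPKM (3.23 to 3.64), 1.43-fold higher (1.19 to 1.74). Its intervals in the libraries did not overlap. The level of Jup was 1.67 times that of Dsp in the control (1.28 to 2.18) and 1.25 times in the mutant (1.13 to 1.37).

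The more restricted plakophilins were low. Pkp1 was at 0.44 and 0.37 RPKM, with a mutant to control ratio of 0.84 (0.43 to 1.81), Pkp3 at 0.57 and 0.49 RPKM, with a mutant to control ratio of 0.85 (0.41 to 1.99), and Pkp2 at 0.071 and 0.066 RPKM. None of these intervals excluded 1. The 6 plaque genes summed to 13.7 and 15.1 RPKM, with a mutant to control ratio of 1.10 (0.99 to 1.23).

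All 9 desmosomal cadherins were below 1 RPKM in both libraries. They lie side by side on chromosome 18 from 20119431 to 20763027 in mm9, a span of 644 kb. Dsc3, a cadherin of basal stratified epithelium, was at 0.74 RPKM in control RNA (0.46 to 1.13) and 0.73 RPKM in mutant RNA (0.61 to 0.87), a ratio of 0.99 (0.62 to 1.66). Dsc2 was at 0.58 and 0.40 RPKM, with a mutant to control ratio of 0.69 (0.38 to 1.34). Dsg2, the desmoglein of simple and many other epithelia, named after its values were seen, was at 0.30 RPKM (0.14 to 0.56) and 0.85 RPKM (0.72 to 0.98), 2.86-fold higher (1.48 to 6.32). Dsg3, of stratified epithelium, was at 0.052 RPKM on about 1.15 control reads and 0.18 RPKM in mutant RNA. The Dsg1 genes, Dsg4 and Dsc1, which mark upper layers and hair, were at 0.12 RPKM or less. The 9 genes summed to 1.85 and 2.34 RPKM, with a mutant to control ratio of 1.26 (0.94 to 1.70).

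Perp, a membrane protein needed for desmosome assembly, was at 3.61 RPKM in control RNA (2.54 to 4.98) and 6.75 RPKM in mutant RNA (6.14 to 7.42), 1.87-fold higher (1.33 to 2.69). The intervals of its levels did not overlap. Epcam, whose promoter is printed above, was at 2.06 RPKM (1.30 to 3.09) and 2.38 RPKM (2.03 to 2.77), a ratio of 1.16 (0.74 to 1.88). Perp and Epcam, both epithelial membrane proteins, had overlapping fold intervals.

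**Figure D3:**
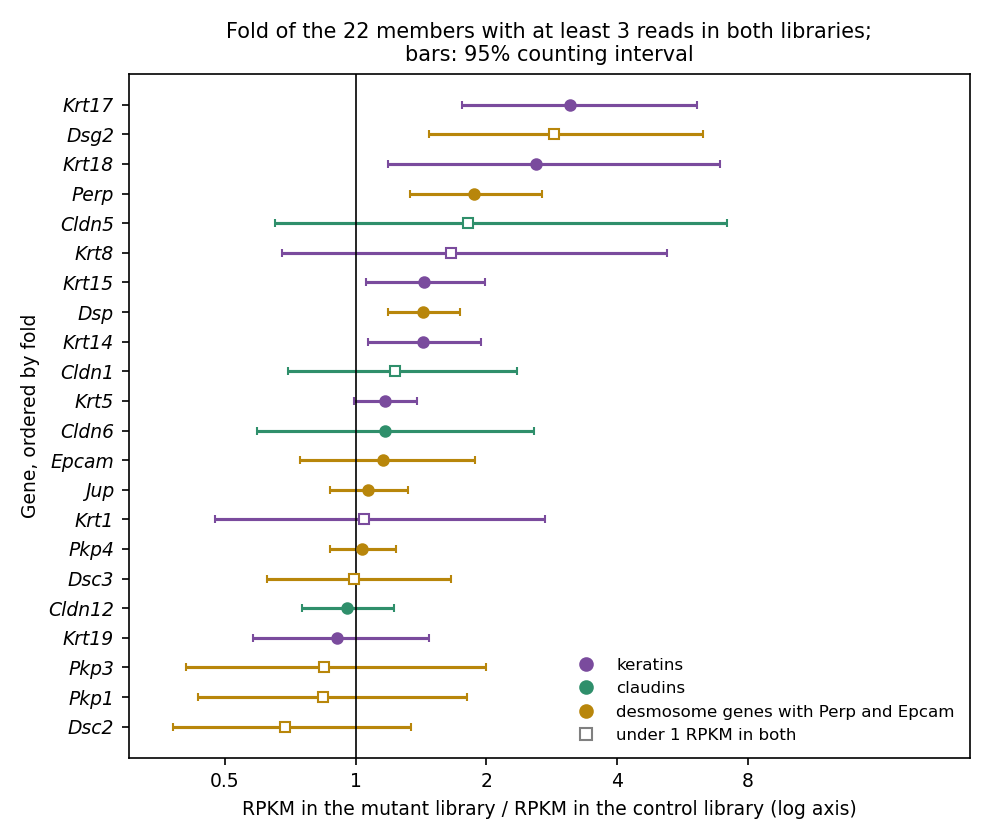
Mutant RPKM over control RPKM (log axis) of the 22 members with at least 3 approximate reads in both libraries, with 95% counting intervals, coloured by family, open squares for members under 1 RPKM in both. Krt17, Dsg2, Krt18 and Perp lie highest with intervals above 1, and no interval lies below 1.

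Claudins were few and mostly near the limit of detection. Cldn12, an atypical claudin present in many tissues, was the most abundant, at 3.96 RPKM in control RNA (3.15 to 4.93) and 3.78 RPKM in mutant RNA (3.45 to 4.13), a ratio of 0.95 (0.75 to 1.22). It is listed as 4 transcript rows. The highest row alone was at 3.96 and 2.95 RPKM, 1.34-fold lower (1.04 to 1.71), and another row was at nearly 0 in the control and 0.67 RPKM in mutant RNA. Both ratios were below 1, and whether the interval included 1 changed with how the rows were taken. Cldn6, a claudin of embryonic epithelia, was at 1.19 RPKM (0.56 to 2.21) and 1.39 RPKM (1.08 to 1.75), a ratio of 1.17 (0.59 to 2.58).

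Cldn1, a sealing claudin of stratified epithelium, was at 0.78 RPKM in control RNA (0.42 to 1.32) and 0.96 RPKM in mutant RNA (0.79 to 1.16), a ratio of 1.23 (0.70 to 2.35). Cldn5, the claudin of endothelium, was at 0.51 and 0.92 RPKM on about 3.86 control reads, a ratio of 1.82 (0.65 to 7.17). The endothelial genes listed for comparison had a median log2 ratio of -0.12, with 1 of 9 above 0, against 42.5% of all genes. Cdh5 was at 10.5 and 9.62 RPKM and Pecam1 at 4.53 and 3.91 RPKM. Cldn4 was at 0.29 and 0.45 RPKM, Cldn8 at 0.17 and 0.41 RPKM and Cldn11 at 0.13 and 0.26 RPKM, each on fewer than 3 control reads. Cldn7 was listed at 0 in the control, where 3 reads would have been 0.43 RPKM, and at 0.39 RPKM in mutant RNA. Of the 25 claudins, 14 were listed at 0 in both libraries. Without Cldn12 the summed ratio was 1.65 (1.14 to 2.41).

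The lower depth of the control library limited which members could be seen. At least 1 approximate read was found for 32 members in the control and 42 in the mutant. All 32 were also found in the mutant. Of the 10 found in the mutant alone, 6 would have had under 1 read at the control depth. The other 4 (Krt222, Krt4, Cldn7 and Cldn10) would have had 1 or more. The 76 members below 1 RPKM summed to 6.30 RPKM in control RNA and 10.3 RPKM in mutant RNA, a ratio of 1.63 (1.31 to 2.03). Of these, 54 were at 0 in the control and add no error to this interval, which may be too narrow.

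**Figure D4:**
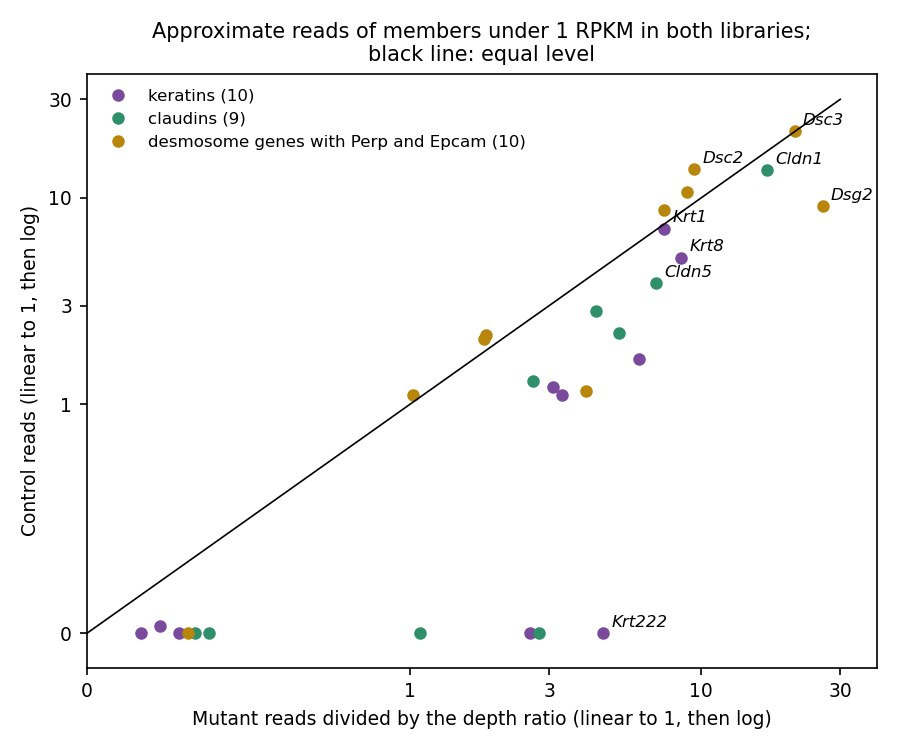
Approximate control reads (vertical axis) against mutant reads divided by the depth ratio (horizontal axis) of the 29 members under 1 RPKM in both libraries with at least 1 read in either, both axes linear to 1 and then log, coloured by family. Points below the black line of equal level, such as Dsg2 and Krt222, are higher in the mutant library.

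Other epithelial gene lists had medians on both sides of that of all genes (-0.05). For the interval counts of these and later lists, the shares over all genes were 7.87% above 1 and 15.9% below 1. Of 13 regulators of epithelial identity, 11 were matched by symbol and 4 reached 1 RPKM, with a median log2 ratio of 0.44. An interval lay above 1 for 2 of them. Esrp1, a splicing factor of epithelium, was at 1.94 and 3.13 RPKM, 1.61-fold (1.16 to 2.28). Grhl2, a transcription factor that maintains epithelial junctions, was at 0.74 and 1.29 RPKM, 1.75-fold (1.10 to 2.94). Grhl2 reached 1 RPKM in the mutant library only, which favours a fold in this direction. Klf5 was at 1.74 and 2.83 RPKM, with a mutant to control ratio of 1.63 (0.97 to 2.90).

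Of 18 genes of the epithelial surface and its attachment to the basement membrane, 5 reached 1 RPKM, with a median of 0.08 and 1 interval above 1. That was Cd24a, a surface protein also found on many immature cells, at 35.9 and 44.6 RPKM, 1.24-fold (1.11 to 1.39). Tmem30b was at 8.29 and 8.19 RPKM, Itga6, the integrin subunit of hemidesmosomes, at 5.80 and 6.20 RPKM, and Sfn at 3.11 and 3.04 RPKM. These 3 were close to equal. Of 14 dental epithelium genes, 3 reached 1 RPKM, with a median of -0.05. Sostdc1, a secreted BMP and Wnt inhibitor, was at 55.6 and 43.3 RPKM, 1.28-fold lower (1.17 to 1.41), and Fst at 4.34 and 4.16 RPKM. Wnt7b was at 0.40 and 0.62 RPKM.

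Genes that work beside desmosomes and claudins in adherens and tight junctions differed in both directions. Of 26, 18 reached 1 RPKM, with a median of -0.07, 2 intervals above 1 and 2 below 1. The beta-catenin gene Ctnnb1 was at 66.8 and 72.5 RPKM, 1.09-fold (1.02 to 1.15). The p120 catenin gene Ctnnd1 was at 13.9 and 14.9 RPKM, and the alpha-catenin gene Ctnna1 at 11.2 and 11.1 RPKM. Tjp1, which encodes the tight junction scaffold ZO-1, was at 13.2 and 11.1 RPKM, 1.19-fold lower (1.08 to 1.31). The E-cadherin gene Cdh1, named here as the epithelial cadherin, was at 0.67 and 1.05 RPKM, with a mutant to control ratio of 1.57 (0.94 to 2.81). F11r, a tight junction adhesion protein named after its values were seen, was at 2.35 and 1.03 RPKM, with a mutant to control ratio of 0.44 (0.29 to 0.68).

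Genes of terminal keratinocyte differentiation were nearly absent. Of 14 listed, 13 were matched and only Sbsn reached 1 RPKM, in the control library only. It was at 1.12 RPKM in control RNA and 0.26 RPKM in mutant RNA, 4.37-fold lower (1.31 to 13.5) on about 6.17 and 9.31 reads. Passing the filter through the control library alone favours a fold in this direction. Krtdap was at 0.97 and 0.52 RPKM, Tgm1 at 0.34 and 0.087 RPKM and Ppl at 0.091 and 0.19 RPKM. With Krt13 at 0 and Krt4 and Krt10 low, little RNA of upper epithelial layers was seen in either library.

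Lists of other cells and filaments are given beside the members, and their part in the members' differences was not tested. Over all genes, 7.87% of intervals lay above 1 and 15.9% below 1. Genes with more reads have narrower intervals, so smaller folds are counted. Prrx1 had about 3894 control reads and Krt5 about 164, so interval counts of lists and members are not directly comparable. Intermediate filament genes other than keratins had a median of 0.14 (7 of 16 tested, 2 intervals above 1 and 1 below 1). Vim was 1.12-fold lower (1.05 to 1.19), Lmnb1 was at 14.7 and 16.2 RPKM, Lmna at 6.24 and 7.03 RPKM, and the neurofilament gene Nefl, which is also in the neural list, at 2.03 and 4.43 RPKM. Dental mesenchyme genes had a median of -0.22 (14 of 15 tested, 1 interval above 1 and 9 below 1), with Col3a1 at 86.1 and 94.5 RPKM and Col1a2 at 86.3 and 73.4 RPKM. Their summed ratio was 0.87 (0.85 to 0.89). Endothelial genes had a median of -0.12 (9 of 10 tested, none above 1 and 2 below 1), with Emcn at 5.53 and 2.54 RPKM and Kdr at 3.55 and 3.19 RPKM. Erythroid genes had a median of -0.24 (8 of 10 tested, none above 1 and 6 below 1), with Hbb-y at 564 and 433 RPKM, Hba-x at 305 and 262 RPKM, Hba-a1 at 143 and 106 RPKM and Hbb-b1 at 79.0 and 66.04 RPKM. Neural and glial genes had a median of 0.64 (2 of 11 tested, 2 intervals above 1 and none below 1) and a summed ratio of 2.03 (1.53 to 2.69). The 2 were Nefl and Nefm (1.21 and 1.98 RPKM), with Elavl4 at 0.28 and 0.33 RPKM and Mbp at 0.22 and 0.24 RPKM. Muscle genes had a median of 0.08 (2 of 10 tested, no interval above or below 1) and a summed ratio of 1.28 (0.89 to 1.86), with Acta1 at 2.18 and 2.28 RPKM, Actc1 at 1.20 and 1.37 RPKM, Tnnt1 at 0.29 and 0.66 RPKM and Tnnt3 at 0.21 and 0.21 RPKM.

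**Figure D5:**
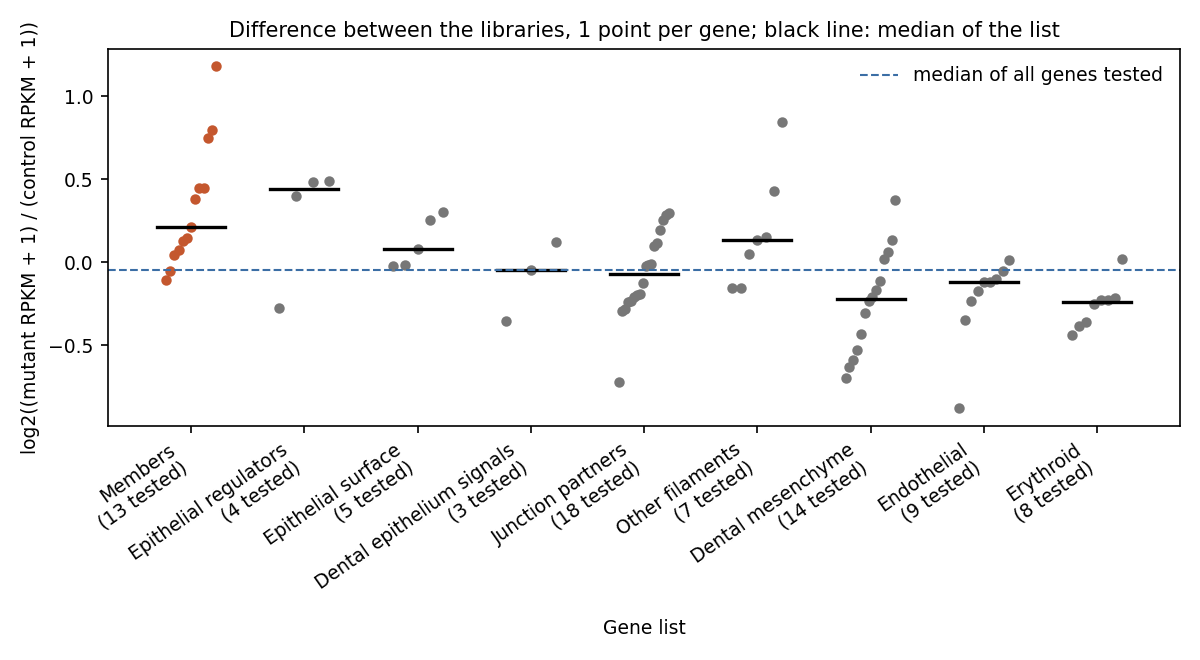
Difference between the libraries, log2 of mutant RPKM + 1 over control RPKM + 1 (vertical axis), 1 point per gene at 1 RPKM or more, with the median of each list as a black line and the median of all genes as a dashed line at -0.05. The members have a median of 0.21 and reach 1.18 (Krt17), and dental mesenchyme genes have a median of -0.22.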

How the data were processed

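RNA of 2 libraries was analysed, 1 per genotype. The reads were processed with TopHat 1.4.1 and Bowtie 0.12.7 on build mm9, per the submitters' processing notes. File names point to Cufflinks, of a version not given in the sources used here. Both deposited tables list 28107 transcript rows with RPKM, scaled by the authors to mapped reads, and with coverage, deposited by the authors unscaled, per the file headers. The tables list rows in different order and were joined by transcript, gene, locus and length. Rows whose status was failed or high-data were left out (none was a member), and rows were summed per symbol. Genes at 1 RPKM or more in at least 1 library were compared, with a pseudocount of 1. Approximate reads are coverage times length divided by 44.3 bases, the mean over libraries of the median product where that product is 20 to 66 bases. Of low values, 24.4% (control) and 23.2% (mutant) lay within 0.1 of a whole read, little more than evenly spread values would give. This step is therefore uncertain, and no count model was fitted. The numbers of mapped reads and all counting intervals rest on it. Level intervals are exact Poisson, fold intervals Clopper-Pearson centred on the RPKM ratio, and intervals of sums use the delta method with a normal approximation. Genes at 0 reads add no error to intervals of sums. Those of claudins, suprabasal keratins and members below 1 RPKM, mostly at 0 in the control, may be too narrow. No test between genotypes is possible with 1 library each. Locus starts were counted from 1. Fold intervals of single genes were tested on simulated Poisson reads drawn with the same bases per read and depth ratio. Such reads could not test the bases per read, amplification noise or the intervals of sums. Python 3.11.15, scipy 1.17.1 and pandas 2.3.3 were used. Named genes were Osr2, all members at 1 RPKM or more, the 3 highest others and the 4 highest of each other list. Some of these list genes are not reported here. Any further gene was chosen after its values were seen. Members, lists and rules were chosen with earlier results of these data known.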

Additional observations from a re-analysis of the deposited data

How the results depend on the processing

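The control depth of about 5.38 M mapped reads limits the low members most. No paired analysis was possible because each genotype has 1 library. The ratios of the 3 family sums stayed above 1 under all 4 alternatives. None of the 4 changed the bases per read, which would alter only the intervals of these ratios. The median of the members stayed above 0 under all 8 alternatives used for it. That median was 0.45 with a filter of 5 RPKM, which leaves 5 members, and 0.55 on the TPM scale, where 34 members reach a value of 1. The median over all genes shifted by at most 0.04 under any scaling. Members at least 2-fold higher numbered 2 of 13 with a pseudocount of 0.1, against 2.01% of all genes. They numbered 0 of 5 with a filter of 5 RPKM, against 0.61%, and 9 of 34 on the TPM scale, against 6.37%. On the TPM scale a filter and pseudocount of 1 stand for a lower level than 1 RPKM, so that count is not an effect of scaling alone. Members at or near 0 in the control, such as Krt222, Krt4, Cldn7 and Cldn10, pass this lower filter through the mutant library only. Such entry favours a higher fold, so neither that count nor the median of 0.55 can be read as an excess. Over all genes, 87 were 2-fold higher and 78 lower; these counts were 197 and 244 with a pseudocount of 0.1, 24 and 26 with 5 RPKM, 895 and 690 on the TPM scale, and 151 and 270 with the highest transcript row. With 100 bases per read, 3 intervals lay above 1, against 2.50% of all genes. With the highest transcript row per gene, 1 of 13 members, Cldn12, had an interval below 1, against 20.2% of all genes. Without the most abundant member, the summed ratio was 1.603 for keratins and 1.65 for claudins. With the highest row per gene, the claudin ratio of 1.14 had an interval from 0.92 to 1.41. The other 39 of 48 values of these results under an alternative stayed within 1.5 times the count, 0.1 of the median or the counting interval of the ratio. Single members were judged by another rule, a shift of the log2 ratio within the error that the control level's counting interval allows. By it 64 of 65 values stayed, the exception being Cldn12 with its highest row, at -0.33. Many of the 65 could not move, so this count overstates stability. Keeping all rows could change no member, and the highest row could change only Cldn12 and Pkp4, the 2 with several rows. Pkp4 went from 0.04 to -0.03 with its highest row. The rule is wide for members with few control reads. Krt18 at 0.80 and Krt17 at 1.18 were at 1.32 and 1.62 on the TPM scale and still counted as unmoved.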
